A study of Danio rerio with 12 samples.

Results

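JQ1, a small molecule that keeps bromodomain (BRD) proteins off acetylated histones, was compared with its vehicle DMSO in tumor cells of zebrafish lymphomas driven by human *IRF4*, over 2 lengths of treatment at once. All 12 RNA-seq libraries of the series entered the comparison, 6 from JQ1-treated and 6 from DMSO-treated fish, and the effect given is the one common to day 1 and day 3. The groups were DMSO at day 1, JQ1 at day 1, DMSO at day 3 and JQ1 at day 3, with 3 libraries each, JQ1 at 4 μM in the water of individual tanks, and DMSO alone for the controls. Every fish carried human *IRF4* and the fluorescent marker mCherry under the zebrafish *lck* promoter, which is active in T cells and also in B cells, and the cells were sorted by mCherry fluorescence from fish that had developed tumors. The study describes its bulk RNA-seq tumor cells as coming from *lck:IRF4* fish at 10 months of age. The p53 genotype and sex of each sequenced fish are not given in the sources used here, although the treated fish shown in the study had wild-type p53, fish of both sexes were treated, and the samples are described as independent animals. Day 1 is given only by the sample labels.

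BRD proteins of the BET class read acetylated histones and bring the kinase complex P-TEFb to genes, where it releases paused RNA polymerase II. A store of P-TEFb is kept inactive on the 7SK RNA by Hexim1, Larp7 and the capping enzyme Mepce, and Hexim1 transcripts commonly rise when BET proteins are blocked, so *hexim1* served as a check of the treatment. T-cell lymphomas often depend on Myc, which raises ribosome production and cell division.

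Sequencing depth, as gene counts, was 8176139 to 12680970 after DMSO and 11298503 to 12771912 after JQ1. Levels are given as CPM, a gene's counts per 1000000 counts on zebrafish genes. For a gene with no counts, a limit of 3 counts allowed 0.235 to 0.367 CPM, depending on the library and covering counting error only. Between libraries of 1 group the chi-square per degree of freedom was 38.8 to 131, so the libraries differed by much more than counting noise. The leading principal component held 46.2% of the variance and ran from -132 to -86.2 in 5 DMSO libraries and from 61.6 to 148 in the JQ1 libraries, while replicate 3 of DMSO at day 1 lay between them at -6.31. The JQ1 library with the lowest transgene level was replicate 2 of day 3, with 786 CPM for *IRF4* and mCherry together against 3962 to 11177 CPM in the other JQ1 libraries and 6791 to 11527 CPM after DMSO. Without these 2 libraries, 4180 genes were higher and 3270 lower, against 3690 and 2942 with all 12.

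Zebrafish RNA per unit of spike-in RNA was lower after JQ1. ERCC transcripts had been added by cell number, and the gene counts per ERCC count, on the log2 scale, ranged from 6.38 to 6.75 (median 6.59) after DMSO and from 4.45 to 6.01 (median 5.82) after JQ1. The treatments did not overlap, and the lowest values were replicates 2 and 3 of JQ1 at day 1. The mean fell by 1.13 on the log2 scale, or 2.18-fold, from 6.59 ± 0.15 to 5.46 ± 0.69 (SD, n = 6 each; p = 0.005, two-sided exact permutation test within days, the smallest p the 400 assignments allow). Within days the difference was -1.60 at day 1 and -0.66 at day 3, each with p = 0.1, the smallest an exact test of 3 against 3 can give. Less RNA per cell and fewer intact cells among those counted cannot be told apart in these bulk libraries.

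Human *IRF4* had 3307 to 6291 CPM (median 4860) after DMSO and 503 to 6660 CPM (median 2946) after JQ1. The ranges overlapped, and the log2 difference of -0.89 did not pass (p = 0.085, exact permutation test, n = 6 each). For mCherry the ranges were 3275 to 5236 CPM and 283 to 4516 CPM, with a log2 difference of -1.10 (p = 0.05, exact permutation test, n = 6 each). JQ1 at day 3 had the lowest mean of the 4 groups for both transgenes.

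**Figure D1:**
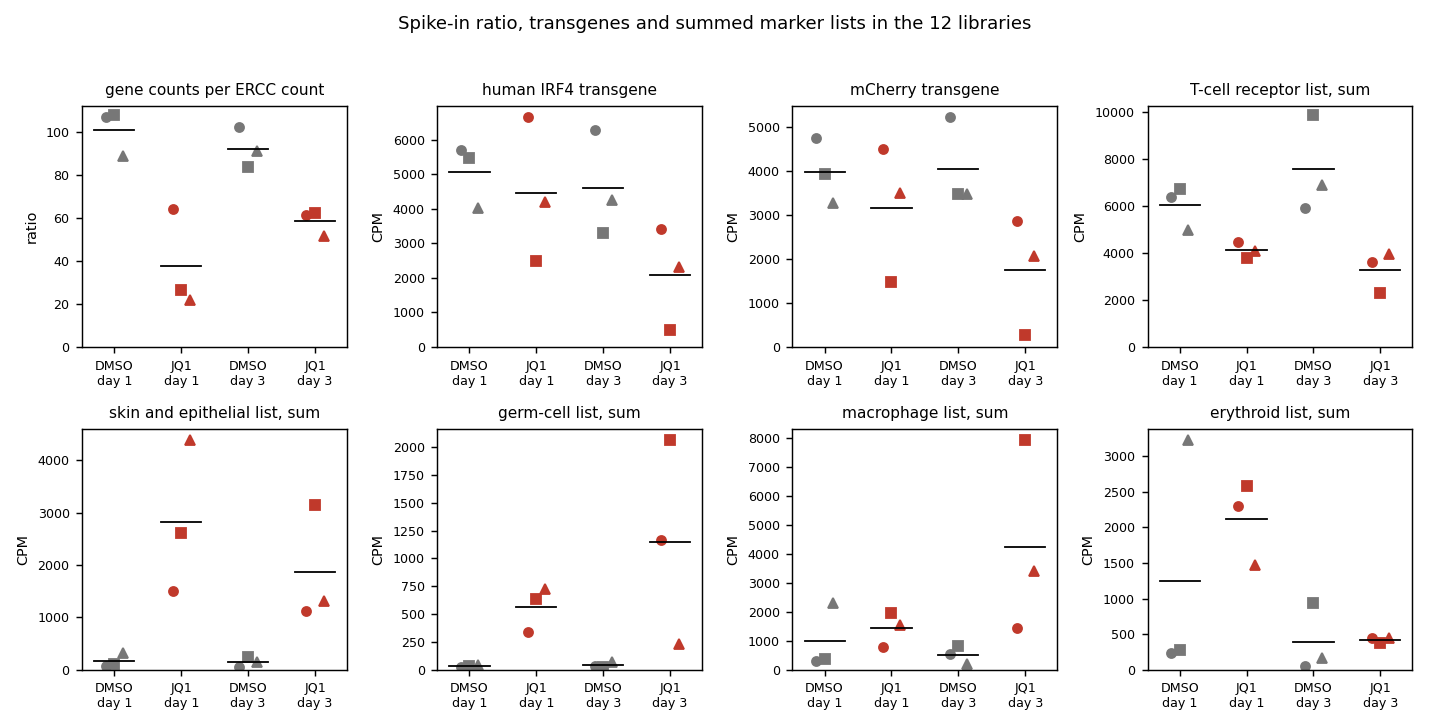
Spike-in ratio (gene counts per ERCC count), transgene levels and summed levels of marker lists (CPM) in the 12 libraries; circles, squares and triangles are replicates 1, 2 and 3, grey is DMSO, red is JQ1, and lines are group means. The spike-in ratios of the 2 treatments do not overlap, lower after JQ1, the skin and germ-cell sums lie above, and the erythroid sums of the 2 treatments overlap.

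Of 18116 genes tested, 3690 (20.4%) were higher after JQ1 and 2942 (16.2%) were lower, together 36.6% at an adjusted p under 0.05 (edgeR). The rises were large and mostly in genes of low level, the falls smaller and in genes of moderate level. The median log2 fold change was 2.69 among the genes that rose and -0.98 among those that fell, and 2756 rises but 197 falls exceeded 4-fold. The genes that rose had a median level of 2.74 CPM over all libraries and those that fell 26.9 CPM, against 9.67 CPM over all genes tested. Of 2004 genes with a mean of under 1 CPM, 35.0% rose and 0.699% fell, while of 1844 genes over 100 CPM, 5.69% rose and 24.1% fell. In 475 of the genes that rose, no DMSO library held more than 3 counts, so they passed the count filter only through JQ1 libraries. The filter's minimum was 10 counts, so others may have passed the same way, and 2193 of the rises had a DMSO mean under 1 CPM. Of 8699 genes with a DMSO mean of at least 10 CPM, 4.78% rose and 29.5% fell, although choosing genes by DMSO level itself favors falls. The shares and rises at low level were thus shaped in part by the filter.

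This balance of rises and falls is on a scale where the typical gene is taken as unchanged, with a median log2 fold change of 0.10 over all genes. Scaled by the ERCC counts instead, the median became -0.83, 1286 genes (7.1%) were higher and 6882 (38%) lower. All 1286 were among the 3690 rises and all 2942 falls stayed falls, while 163 of the rises had a log2 fold change below 0. The 2 scales were apart by 0.93 at the median of all genes.

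**Figure D2:**
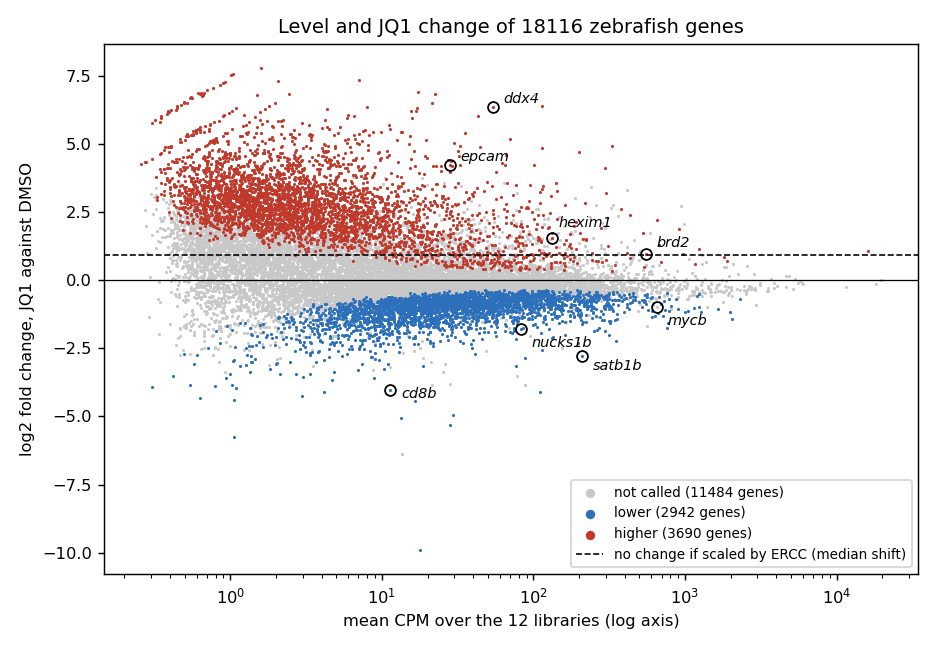
Log2 fold change of JQ1 against DMSO over both days for each gene tested, by its mean level over the 12 libraries (log axis); red and blue are genes called higher and lower, circles mark genes named in the text. Rises are densest below 10 CPM and falls between 10 and 100 CPM; the dashed line at 0.93 marks where no change lies when scaled by ERCC counts.

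Both days moved the called genes the same way. Of the 3690 rises, 3688 had a positive log2 fold change on each day, and all 2942 falls were negative on each day; over all genes tested, 78.3% had the same sign. A common direction is partly built into a call over both days. The change was larger at day 3 for 2395 of the rises (median 2.37 at day 1 and 2.95 at day 3) and for 1885 of the falls (median -0.86 and -1.07). No gene had a day difference in its JQ1 effect at an adjusted p under 0.05 by edgeR's interaction test, with 1260 at an unadjusted p under 0.05. Every JQ1 library exceeded every DMSO library of the same day for 1842 genes (10.2%), and the reverse held for 1596 (8.81%); over all 12 libraries these were 1416 (7.82%) and 1163 (6.42%). Taken alone in a fit with a mean for each group, day 1 called 469 rises (2.59%) and 422 falls (2.33%) and day 3 called 2203 (12.2%) and 1829 (10.1%). Of the 6632 genes called over both days, 870 were also called at day 1, 3401 at day 3 and 2988 at neither.

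**Figure D3:**
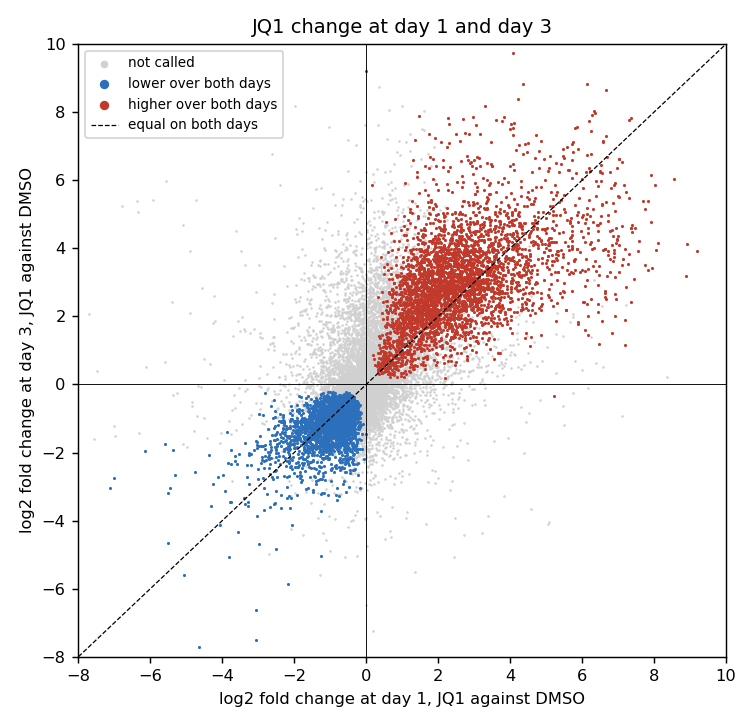
Log2 fold change of JQ1 against DMSO at day 1 (horizontal) and day 3 (vertical) from 1 fit of all 12 libraries; red and blue are genes called over both days, grey the rest, and the dashed line marks equal change (8 genes lie outside the axes). Called genes lie in the upper right and lower left corners apart from 2 of the rises, and more of them lie beyond the line on the day 3 side.

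The treatment check, *hexim1* (ENSDARG00000036482), had 46.5 to 91.3 CPM (median 66.9) in the DMSO libraries and 132 to 336 CPM (median 178) in the JQ1 libraries. Every JQ1 library was above every DMSO library, and the highest was replicate 1 of JQ1 at day 1. The log2 fold change was 1.55 (SE 0.22, adjusted p = 0.00114), with 1.82 at day 1 and 1.27 at day 3. Per ERCC count the rise was 0.69 and no longer passed (adjusted p = 0.138).

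Of 16 genes for BET proteins, P-TEFb and the 7SK complex, 4 rose and 2 fell, with a median log2 fold change of -0.080. Both counts were near the shares of all genes tested, 20.4% higher and 16.2% lower. The rises were the P-TEFb inhibitor *hexim1*, both copies listed as *mepce*, the 7SK capping enzyme (ENSDARG00000059461, 1.73, and ENSDARG00000035771, 0.75), and *brd2*. *brd2* had 245 to 422 CPM after DMSO and 513 to 1158 CPM after JQ1, without overlap (log2 fold change 0.95, SE 0.21, adjusted p = 0.00651). Per ERCC count *brd2* was at 0.071 and did not pass, and in the list none of the rises passed and 8 genes were lower. Its other copy *brd2b* was at 0.06 and did not pass. The falls were *larp7*, a 7SK-binding protein (-0.58), and *brd3a* (-0.57), both named after their values were seen. The number of falls was 0 without replicate 1 of DMSO or replicate 2 of JQ1 at day 1 and without replicate 2 or 3 of DMSO or replicate 3 of JQ1 at day 3, 1 without replicate 3 of JQ1 at day 1, replicate 1 of DMSO or replicate 2 of JQ1 at day 3, and 4 without replicate 3 of DMSO at day 1. The P-TEFb kinase *cdk9* (-0.22) and *ccnt1*, its cyclin (0.18), did not pass.

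A further bromodomain gene, *brdt*, known in mammals for its role in male germ cells, was among the 6 rises with the smallest p at 50 CPM or more and no overlap within days. It had 77.2 to 101 CPM (median 88.8) after DMSO and 144 to 299 CPM (median 232) after JQ1. The JQ1 libraries of day 1 were the highest. Its log2 fold change was 1.32 (SE 0.16, adjusted p = 0.000789). The others of these 6 were *ctnnb2*, one of the beta-catenins (1.33), *ggps1*, which makes geranylgeranyl diphosphate (1.31), and the epithelial genes *cldnb* (4.41), *epcam* (4.22) and *krt17* (5.04). Per ERCC count *brdt* (0.42), *ctnnb2* (0.41) and *ggps1* (0.42) did not pass, while the epithelial genes did.

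**Figure D4:**
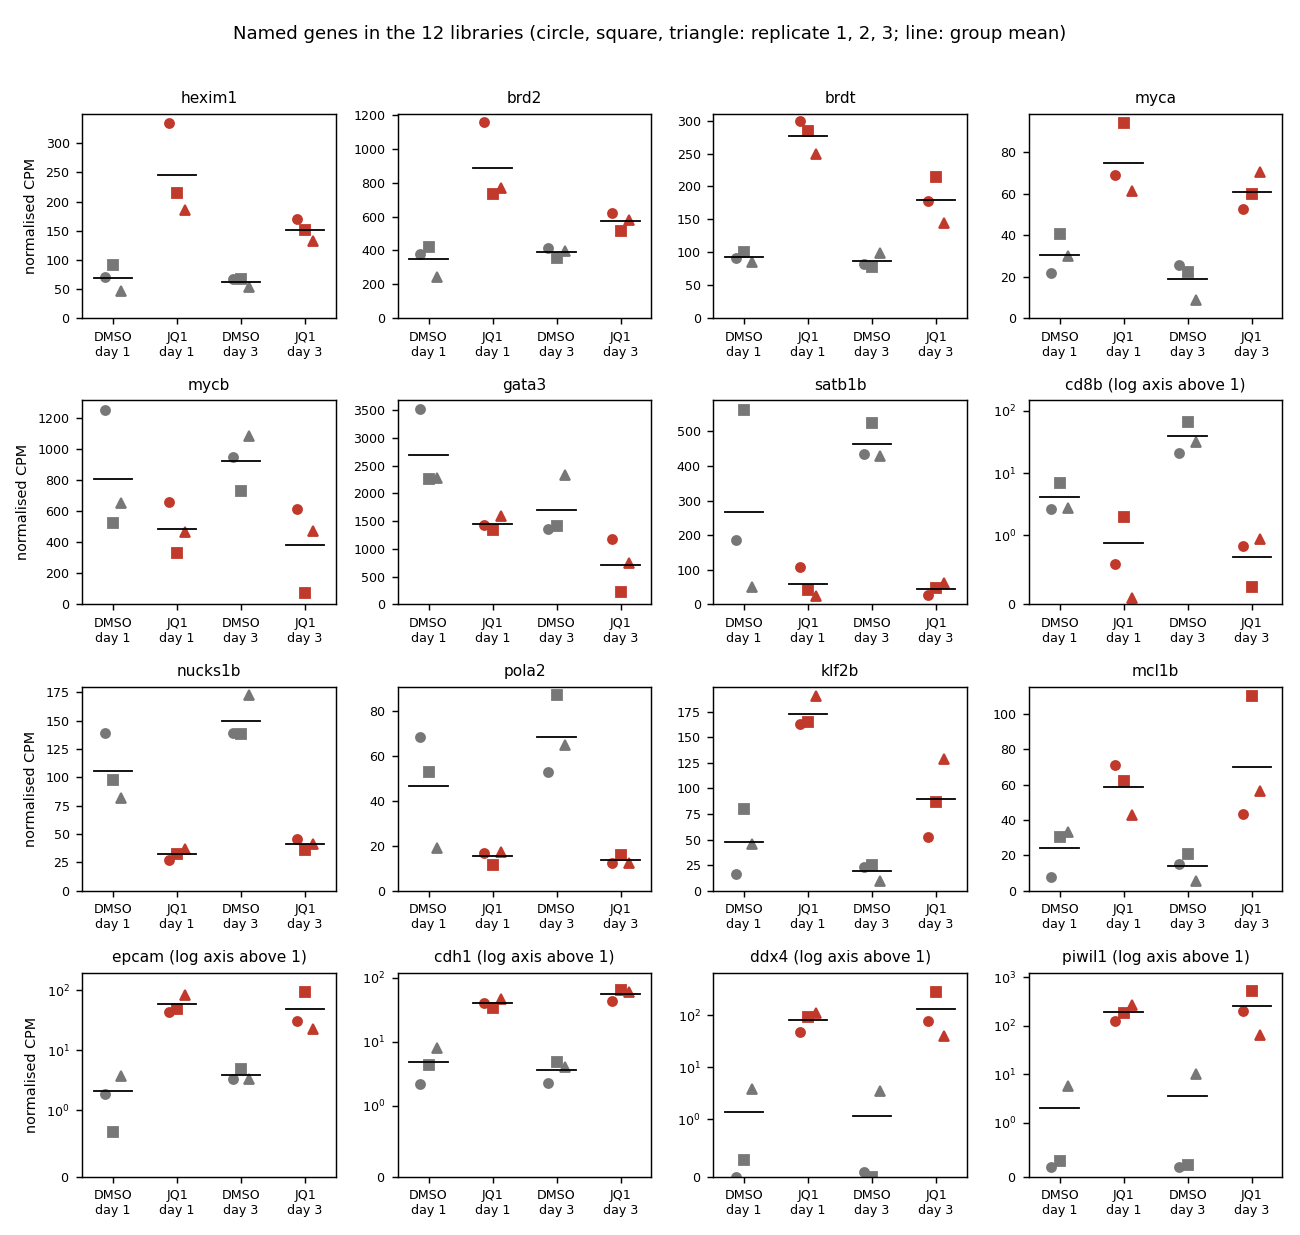
Normalised CPM of 16 named genes in each library (circle, square and triangle for replicates 1, 2 and 3; line, group mean; grey, DMSO; red, JQ1); 5 panels use a log axis above 1 CPM. For *hexim1*, *brd2* and *brdt* the treatments do not overlap, and for *mycb* they do.

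Among 15 genes of the Myc family and its partners, 4 rose and 1 fell (median -0.31), beside 20.4% higher and 16.2% lower over all genes tested. *mycb*, one of the 2 zebrafish counterparts of MYC, had 524 to 1256 CPM (median 841) after DMSO and 72.1 to 660 CPM (median 467) after JQ1. The ranges overlapped, with replicate 2 of JQ1 at day 3 far below the rest, and its log2 fold change of -1.0 (SE 0.42) had an adjusted p of 0.078. The other counterpart, *myca*, went from 8.75 to 40.4 CPM (median 24.0) after DMSO to 52.7 to 94.0 CPM (median 65.1) after JQ1. All its JQ1 libraries lay above all DMSO libraries (log2 fold change 1.48, SE 0.26, adjusted p = 0.00266). *mych* (0.91), *mycn* (2.13) and the Myc antagonist *mxi1* (1.05) rose too, and *mxd3*, another antagonist, fell (-1.11), although 6 of the 12 fits that left out 1 library called no fall in the list. The rise of *mycn* did not pass without replicate 1 of JQ1 at day 3 (log2 fold change 1.6, adjusted p = 0.0753), and that of *mxi1* did not pass in 4 of the 12 fits that left out 1 library. None of the 4 rises passed when scaled by ERCC counts.

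The study's 10 shortlisted tumor genes had negative log2 fold changes throughout, -0.35 to -2.57, and 4 of them fell. Over all genes tested 16.2% fell. The study chose its shortlist from other measurements of such tumors. *psip1a*, a chromatin reader that tethers other proteins to transcribed genes, had 81.8 to 384 CPM (median 116) after DMSO and 4.70 to 78.2 CPM (median 32.9) after JQ1. The treatments did not overlap, although the highest JQ1 library was close to the lowest DMSO library (log2 fold change -2.57, SE 0.59, adjusted p = 0.00733). *ncaldb*, a calcium-binding neurocalcin (-1.45), *gata3*, a transcription factor of early and helper T cells (-1.07), and *patl1*, which takes part in mRNA decay (-0.59), fell as well. The fall of *gata3* did not pass without replicate 2 of JQ1 at day 1 or without replicate 3 of DMSO at day 3 (adjusted p up to 0.0583). *mycb*, *lrrn1*, *h2afx*, *sec22ba*, *midn* and *sla2* did not pass on the main scale, and per ERCC count all 10 genes were lower. In the fit with a mean for each group, *lrrn1* (-2.28), *h2afx* (-1.61) and *sec22ba* (-2.10) passed at day 3 but not at day 1. *mycb*, *midn* and *sla2* passed on neither day, and nor did *gata3*, although it was called over both days (edgeR adjusted p = 0.256 at day 1 and 0.0737 at day 3).

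T-cell genes were lower in part, beside 16.2% lower and 20.4% higher over all genes tested. By level, 26.9% of genes at a mean of 10 to 100 CPM and 24.1% over 100 CPM fell. Of 19 tested members of the receptor complex and its signaling chain, 9 fell and 1 rose (median -0.89). The summed level of the list was 4986 to 9866 CPM after DMSO and 2278 to 4482 CPM after JQ1. *themis*, needed in thymocyte selection, had 352 to 755 CPM (median 509) after DMSO and 68.2 to 258 CPM (median 250) after JQ1, with no overlap (log2 fold change -1.41, adjusted p = 0.00756). The coreceptor gene *cd8b* went from 2.69 to 66.7 CPM (median 13.8) to 0.0877 to 2.0 CPM (median 0.715), the largest fall but one of those named by size (-4.05, adjusted p = 0.00621). In *cd8b* the DMSO libraries of day 3 were the highest. The adaptor *skap1* fell (-1.44), *lck* itself, whose promoter drives the transgene, was at -1.08 with an adjusted p of 0.0647, and *fyn*, a Src-family kinase, rose from a DMSO mean of 0.808 CPM (2.79), whereas its copy *fynb* fell (-1.05). *cd247* was too low to test and *cd2* was not matched.

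Of 24 transcription factors of the T lineage, 9 fell and 5 rose (median -0.56). The share that rose was near the 20.4% of all genes tested, of which 16.2% fell. *satb1b*, a chromatin organizer of thymocytes, had 51.1 to 563 CPM (median 431) after DMSO and 24.0 to 108 CPM (median 45.7) after JQ1. Only replicate 3 of DMSO at day 1 lay within the JQ1 range (log2 fold change -2.77, SE 0.55, adjusted p = 0.00421). *ikzf1*, which encodes Ikaros, fell without overlap within days (-1.34, adjusted p = 0.00508). The Id proteins, which block E proteins such as Tcf3, moved the other way: *id2* went from 6.61 to 22.7 CPM to 28.6 to 55.4 CPM (1.6, adjusted p = 0.00325), *id2b* rose by 2.81 on the log2 scale, and *id3*, named after its values were seen, by 1.56. *tcf3b*, also named afterwards, fell (-0.93). The remaining rises were 1 copy of *notch1* (0.99) and *foxp3a*, a factor of regulatory T cells (2.32), and without replicate 3 of DMSO at day 1 the number of rises was 8, and 3 without replicate 1 of JQ1 at day 3. None of the 5 rises passed when scaled by ERCC counts.

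V(D)J recombination genes were lower, 7 of 10 tested, with a median of -1.25, beside 16.2% lower over all genes tested. The end-joining genes *xrcc5* (-1.16), *xrcc6* (-1.18), *lig4* (-1.33) and *prkdc* (-1.32) had the smallest p. *xrcc5* went from 39.7 to 77.5 CPM after DMSO to 20 to 32.8 CPM after JQ1, and no library of one treatment reached those of the other. The recombinase genes *rag1* (-2.23, adjusted p = 0.0454) and *rag2* (-2.07, adjusted p = 0.00933), named after their values were seen, fell too, while *dntt*, which adds untemplated bases at the joints, was at 2.06 and did not pass.

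DNA replication was the list with the lowest median of the 37 described, -1.36, with 35 of 42 genes lower. Over all genes tested 16.2% fell, and 26.9% did among those with a mean of 10 to 100 CPM. The summed levels overlapped, 2061 to 8259 CPM after DMSO and 1641 to 3004 CPM after JQ1. Every JQ1 library was below every DMSO library of the same day in 2 of the 42 genes, against 8.81% of all genes tested. *pola2*, a subunit of the polymerase that primes new strands, had 18.7 to 87.0 CPM (median 58.9) after DMSO and 11.6 to 17.4 CPM (median 14.0) after JQ1. The DMSO range began just above the JQ1 range, at replicate 3 of day 1 (log2 fold change -1.98, SE 0.30, adjusted p = 0.00149). *gins1*, of the replicative helicase (-1.98), *fen1*, which trims Okazaki fragments (-1.86), and *chaf1b*, which deposits histones behind the fork (-1.59), fell too. Of 34 genes of mitosis 11 fell (median -0.80), and the median of the list was 0.059 at day 1 and -1.65 at day 3, but no single gene of the comparison passed the test of a day difference. The spindle-checkpoint kinase *bub1* (-1.37) and the kinetochore gene *ndc80* (-1.21) fell. Without replicate 3 of DMSO at day 1, whose summed replication level of 2061 CPM was the lowest of the DMSO libraries, 22 mitosis genes were lower.

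Genes of ribosome making fell, while those of the cytosolic ribosome itself mostly did not pass. Of 39 nucleolar genes, 32 were lower (median -0.94). Over all genes tested 16.2% fell, with 26.9% at a mean of 10 to 100 CPM and 24.1% over 100 CPM. *polr1c*, a subunit shared by RNA polymerases I and III, had 17.8 to 35.9 CPM (median 27.2) after DMSO and 4.00 to 11.7 CPM (median 5.56) after JQ1, with no overlap (log2 fold change -2.06, SE 0.28, adjusted p = 0.00107). *ftsj3* (-1.77), *wdr12* (-1.33) and *gar1* (-1.12), which act in processing and modification of ribosomal RNA, fell as well. Of 81 cytosolic ribosomal protein genes, 2 were lower (median -0.34), with 8 lower without replicate 3 of DMSO at day 1 and 1 in 9 of the other 11 fits that left out 1 library. Scaled by ERCC counts, 77 of the 81 were lower. Mitochondrial ribosomal proteins were lower in 43 of 74 genes (median -0.76), with *mrpl11* going from 15.8 to 37.8 CPM to 6.80 to 9.82 CPM (-1.76, adjusted p = 0.000890). Of 49 proteasome genes 28 were lower and 1 rose, *psme4a*, an activator subunit (3.00). Of 86 nuclear genes of the respiratory chain 27 were lower, near the 26.9% of genes at 10 to 100 CPM, and 4 higher. Without replicate 3 of DMSO at day 1 the respiratory count was 48 lower, and the 4 rises became 0 without replicate 1 of DMSO or 2 of JQ1 at day 1 or replicate 1 of DMSO at day 3, 1 without replicate 2 or 3 of DMSO or replicate 1 or 2 of JQ1 at day 3, and 2 without replicate 3 of JQ1 at day 3.

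The falls with the smallest p at 50 CPM or more, among genes without overlap within days, were in genes of several processes. *nucks1b*, a nuclear DNA-binding protein, had 81.5 to 173 CPM (median 139) after DMSO and 26.8 to 45.9 CPM (median 36.3) after JQ1. The groups were well apart (log2 fold change -1.80, SE 0.17, adjusted p = 0.000450). *med25*, of the Mediator complex (-1.81), *sae1*, of the SUMO-activating enzyme (-2.25), *scfd1*, of transport between endoplasmic reticulum and Golgi (-1.37), *mcts1*, of translation re-initiation (-1.53), and *acbd6*, an acyl-CoA-binding protein (-1.74), fell as well. For none of these 6 did a library of one treatment reach those of the other, but separation within days was a condition for naming them.

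Among genes at 10 CPM or more without overlap within days, the largest falls began with *baiap3*, a Munc13-family protein of vesicle release. It had 18.1 to 365 CPM (median 257) after DMSO and 4.21 to 25.6 CPM (median 9.31) after JQ1. The lowest DMSO library lay within the JQ1 range of the other day, but within days the treatments did not overlap (log2 fold change -4.11, SE 0.52, adjusted p = 0.000890). After *cd8b* followed *ndufa4b*, *shda*, *cpxm1b*, *igf2bp1*, *aga*, *cbs*, *rmi1*, *slc45a1*, *snrnp25* and *vars2*, with log2 fold changes of -3.60 to -2.63. Of these, *cbs* encodes cystathionine beta-synthase, *rmi1* a partner of the BLM helicase, *snrnp25* a protein of the minor spliceosome, and *vars2* the mitochondrial valyl-tRNA synthetase. *igf2bp1*, an RNA-binding protein, had 760 CPM in replicate 2 of DMSO at day 3 and a DMSO median of 22.6 CPM. Its fall of 3.17 shrank to 1.55 on the log2 scale at the least over the fits that left out 1 library, and it did not pass in 6 of the 12.

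Genes of cell-cycle arrest and survival were higher in part. Of 30 tested genes that p53 raises or that mark quiescence, 13 rose (median 0.58), beside 20.4% of all genes tested. Per ERCC count the 13 rises no longer passed and 3 genes were lower, with a median of -0.28. *klf2b*, a transcription factor of resting T cells, had 8.89 to 80.0 CPM (median 24.2) after DMSO and 52.5 to 191 CPM (median 146) after JQ1. Within each day the treatments did not overlap, though 1 DMSO library of day 1 was above the lowest JQ1 library of day 3 (log2 fold change 2.05, SE 0.38, adjusted p = 0.00297). *tob1b*, an antiproliferative gene (1.61), 1 copy of *cdkn1b*, which encodes the inhibitor p27 (ENSDARG00000054271, 0.86), and 1 copy of *gadd45a* (ENSDARG00000104571, 1.67) rose as well. Among genes that p53 is known to raise, *cdkn1a* (1.68) and *phlda3* (2.2) rose and *mdm2* (0.25), *bax* (0.29) and *ccng1* (0.41) did not pass, all named after their values were seen. The count was 7 without replicate 2 of DMSO at day 3 and 8 without replicate 2 of JQ1 at day 3.

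Of 17 Bcl2 family genes, 5 rose and 1 fell, beside 20.4% higher and 16.2% lower over all genes tested. The rises were on both sides of the death pathway: *mcl1b* protects cells and went from 5.47 to 33.4 CPM (median 17.8) to 42.6 to 110 CPM (median 59.3), with no overlap (log2 fold change 1.82, adjusted p = 0.00835), and *bcl2l11*, which encodes the killer protein Bim, went from 2.69 to 4.51 CPM to 7.46 to 12.9 CPM (1.54, adjusted p = 0.00215). One copy of *bok* (ENSDARG00000052129, 3.16) rose from a DMSO mean of 0.396 CPM, *bcl2l1* (0.48) and *mcl1a* (0.66), named afterwards, rose less, and *baxb* fell (-0.92), though not in 3 of the 12 fits that left out 1 library. The number of rises was 3 in 8 of these 12 fits, the exceptions being those without replicate 2 or 3 of DMSO or replicate 3 of JQ1 at day 1 and without replicate 1 of DMSO at day 3. Per ERCC count, 1 gene of the list was higher and 2 were lower.

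Germ-cell genes made up most of the largest rises. The 12 rises named by size were taken from genes at 10 CPM or more without overlap within days. Among them, *piwil2*, *tdrd9* and *tdrd5* had at most 8, 9 and 5 counts in any DMSO library. Such genes passed the count filter through JQ1 libraries, which favors large rises. Of the 12, *piwil1*, *piwil2*, *tdrd1*, *tdrd5*, *tdrd6*, *tdrd9*, *rnf17* and *ddx4* encode proteins of the piRNA pathway or germ granules, which silence transposons in germ cells. *ddx4*, the Vasa helicase, had 0 to 3.74 CPM (median 0.187) after DMSO and 40.1 to 274 CPM (median 84.2) after JQ1. No library of one treatment came near the other (log2 fold change 6.36, SE 1.07, adjusted p = 0.00216). *piwil2* had up to 1.09 CPM after DMSO and 12.2 to 85.6 CPM after JQ1 (6.89, SE 0.69, adjusted p = 0.000450). The others of the 12 were *moto*, *ddx19a*, the collagen gene *col28a1a* (6.03) and the chemokine gene *ccl39.3*, which had at most 3 counts in each DMSO library and 3.52 to 41.1 CPM after JQ1, at least 48.2-fold higher against a floor of 3 counts per DMSO library.

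In the whole list of germ-cell markers, 15 of 17 tested genes rose (median 5.43). Its summed level was 28.1 to 73.5 CPM after DMSO and 230 to 2061 CPM after JQ1, highest in replicate 2 of JQ1 at day 3 and lowest among the JQ1 libraries in replicate 3 of that day. Genes of meiosis such as *sycp3* (4.08) and *dmc1* (3.03) were among them, *sycp1* (1.2) and *rec8b* (1.08) did not pass, and *asz1*, at no more than 3 counts in each DMSO library, was at least 14-fold higher. Beside them, 5 of 10 markers of gonad somatic cells rose (*sox9*, *dmrt1*, *sox9b*, *star* and *gsdf*), 1 of 3 oocyte markers did (*zp3b*), and 24 of 31 genes of the motile cilium and sperm tail did (median 3.18), with *dnah5*, an axonemal dynein, at 3.11. Unlike the germ-cell sums, those of the cilium list overlapped, 138 to 266 CPM after DMSO and 186 to 1212 CPM after JQ1. The gonad somatic sums overlapped too, 7.64 to 163 CPM and 48.2 to 149 CPM, and 7 of 17 identifiers of that list were too low to test. The cilium rises numbered 17 to 25 over the fits that left out 1 library. In each fit that left out 1 library, 15 or 16 germ-cell markers rose. Over all genes tested 20.4% rose, and 30.8% did among those with a mean of 1 to 10 CPM. Members of these lists that were almost absent after DMSO passed the count filter through JQ1 libraries. The shares of these lists that rose were thus shaped in part by the filter.

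Each of 20 skin and epithelial markers rose, with log2 fold changes of 2.75 to 5.04 and a median of 3.48. Over all genes tested 20.4% rose. *cdh1*, which encodes E-cadherin, had a DMSO mean of 4.26 CPM and a JQ1 mean of 47.5 CPM (log2 fold change 3.46, SE 0.35, adjusted p = 0.000450). *epcam*, an epithelial adhesion protein, had 0.672 to 4.80 CPM (median 3.28) after DMSO and 22.4 to 93.2 CPM (median 45.1) after JQ1. In both genes all JQ1 libraries were above all DMSO libraries. The summed list ran from 53.6 to 313 CPM after DMSO, highest in replicate 3 of day 1, and from 1130 to 4383 CPM after JQ1. In each fit that left out 1 library all 20 rose, and 19 did so per ERCC count.

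Markers of other tissues were higher in part, beside 20.4% higher over all genes tested and 30.8% at a mean of 1 to 10 CPM. Rises were called in 12 of 17 liver markers, such as the complement gene *c3a.1* (4.47), in 13 of 20 of intestine and kidney, such as the salt transporter *slc12a3* (4.92), in 7 of 10 of muscle, such as the calcium pump *atp2a1* (4.31), and in 29 of 55 collagen and laminin genes, such as *col1a1* (2.57). Summed levels after JQ1 ranged widely: the liver list had 11.1 to 59.1 CPM after DMSO and 80.5 to 981 CPM after JQ1, the intestine and kidney list 110 to 457 CPM and 306 to 1071 CPM, the collagen and laminin list 101 to 334 CPM and 202 to 657 CPM, and the muscle list 13.3 to 42.2 CPM and 30.3 to 278 CPM. Leaving out replicate 3 of JQ1 at day 3 reduced the liver count to 6. Of 23 muscle identifiers, 13 were too low to test, as were 15 of 70 collagen and laminin genes. Genes almost absent after DMSO passed the count filter through JQ1 libraries, so these shares were shaped in part by the filter. Of blood cell types, 4 of 8 granulocyte markers rose, such as *mmp9*, a matrix protease (2.5), with sums of 45.9 to 452 CPM and 597 to 1111 CPM that did not overlap.

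Calls among macrophage and vessel markers moved with the libraries included. Of 20 macrophage markers 2 rose, *slc3a2a* and *ctss2.1*, and 12 did without replicate 3 of DMSO at day 1, 0 or 1 without any 1 of 9 others, and 3 without replicate 1 of JQ1 at day 1 or replicate 3 of JQ1 at day 3. That library's summed macrophage level was 2309 CPM, against 181 to 828 CPM in the other DMSO libraries and 788 to 7922 CPM after JQ1. Of 15 endothelial markers 5 rose, 13 without that library and 2 or 3 without any other library but replicate 3 of JQ1 at day 1. The 5 of 15 were near the 30.8% that rose among all genes with a mean of 1 to 10 CPM. B-cell markers were called in 1 of 11 genes, *prdm1*, which did not pass without any 1 of 10 libraries, and their sums overlapped, 475 to 6401 CPM after DMSO and 1572 to 5794 CPM after JQ1. None of 11 erythroid markers was called by edgeR, with 1 at an unadjusted p under 0.05, none by DESeq2 and 4 by limma voom, and their sums of 48.7 to 3223 CPM and 372 to 2588 CPM overlapped too. The part that cells of these types had in the rises was not tested. One macrophage gene, a copy listed as *mpeg1* (ENSDARG00000078569), had no counts in any library, and the oocyte genes *bmp15*, *figla* and *gdf9* were among 7 of 10 oocyte markers too low to test.

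**Figure D5:**
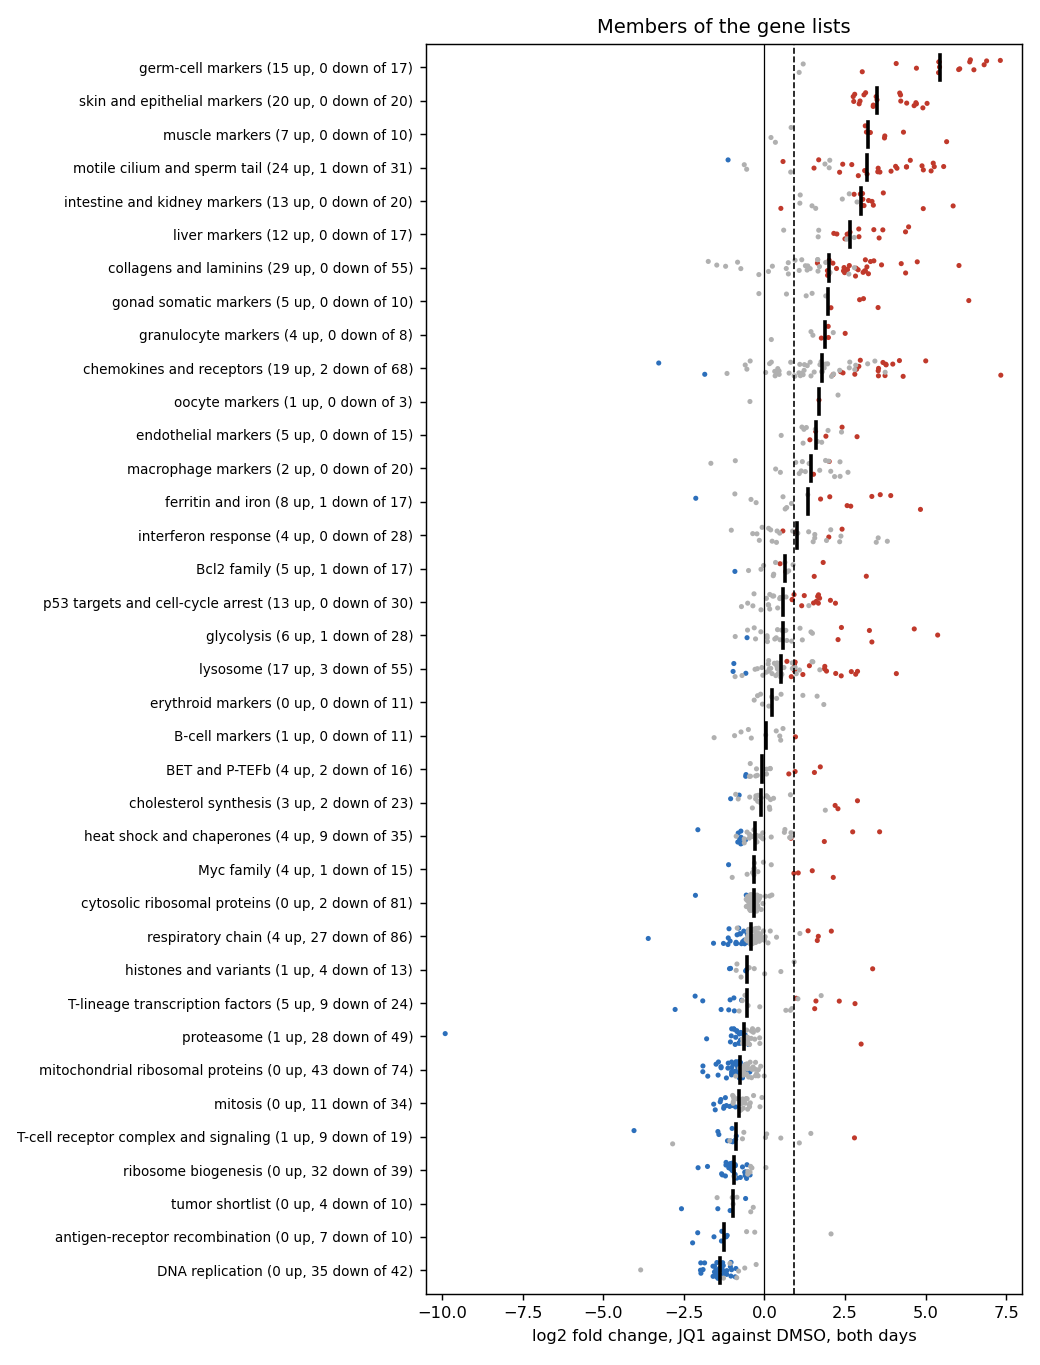
Log2 fold change of JQ1 against DMSO over both days for each tested member (dot) of 37 gene lists, ordered by their medians (black bars); red and blue members were called higher and lower, and the dashed line at 0.93 marks no change per ERCC count. Germ-cell, skin, muscle and cilium lists lie at the top, with medians of 3.18 to 5.43, and DNA replication lies at the bottom with -1.36.

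Some chemokine and lysosomal genes were higher, and interferon genes rose no more often than all genes. Over all genes tested 20.4% rose, and 30.8% did among those with a mean of 1 to 10 CPM. Of 68 chemokines and their receptors, 19 rose and 2 fell (median 1.78), and 34 rose without replicate 3 of DMSO at day 1. *cxcl18b*, which attracts neutrophils in zebrafish, had 0.259 to 1.64 CPM after DMSO and 8.79 to 79.8 CPM after JQ1 (log2 fold change 5.0, SE 0.62, adjusted p = 0.000831), and *ccl25b* rose by 4.19 on the log2 scale. The treatments did not overlap in either gene. Of 28 interferon genes 4 rose, a smaller share than the 20.4% of all genes tested (median 0.99). Per ERCC count 1 was higher and 2 were lower, with a median of -0.0011. *irf7*, an inducer of interferon, went from 20.5 to 47.7 CPM to 64.7 to 642 CPM (2.41, adjusted p = 0.00545). The highest *irf7* library was far above its group median of 118 CPM. The count of 4 became 10 without replicate 3 of DMSO at day 1, 2 without replicate 1 or 2 of JQ1 at day 1 or replicate 2 of DMSO or 1 of JQ1 at day 3, and 1 without replicate 1 of DMSO at day 1, replicate 1 or 3 of DMSO at day 3, or replicate 3 of JQ1 at day 3. Of 55 lysosomal genes 17 rose and 3 fell, against 3 and 5 per ERCC count, *hexa*, a hexosaminidase subunit (1.86), being the rise with the smallest p and *grnb* a fall (-0.95), and the rises numbered 9 to 27 over the fits without 1 library, with 27 without replicate 3 of DMSO at day 1 9 or 10 without any 1 DMSO library of day 3, and 11 without replicate 1 of DMSO or 2 of JQ1 at day 1 or replicate 2 of JQ1 at day 3.

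Metabolic and folding genes were mixed, beside 20.4% higher and 16.2% lower over all genes tested. Of 28 glycolytic genes 6 rose, near the 20.4% of all genes tested, and 1 fell. The rises with the smallest p were in copies of *pfkm*, *tpi1*, *gpi* and *eno1* with DMSO means of 0.0145 to 1.22 CPM. The rises numbered 12 without replicate 2 of DMSO at day 1 and 3 without replicate 2 of JQ1 at day 1. Of 23 genes of cholesterol synthesis 3 rose and 2 fell, among the falls *idi1*, an isoprenoid isomerase (-1.05), with 5 rises without replicate 3 of JQ1 at day 3 and 1 fall without replicate 2 of JQ1 at day 1. Among 35 chaperone genes 9 fell and 4 rose, with *hsph1*, a partner of Hsp70 (-2.07), and the chaperonin subunits *tcp1* (-0.83), *cct3* (-0.81) and *cct5* (-0.73) falling; the rises were 0 or 1 without any 1 DMSO library of day 3, and 2 without replicate 2 of DMSO or 1 or 2 of JQ1 at day 1 or replicate 2 or 3 of JQ1 at day 3. Of 17 genes of ferritin and iron handling 8 rose and 1 fell, the ferritin gene *fthl27* going from a mean of 253 to 796 CPM (1.74, adjusted p = 0.0124) and another ferritin gene, *fth1b*, from 17.3 to 3.93 CPM (-2.13, adjusted p = 0.00144). The iron list had 4 rises without replicate 1, 2 or 3 of DMSO at day 3 and 5 without replicate 1 of DMSO at day 1. Of 13 histone genes 4 fell, among them both macroH2A genes, *macroh2a2* (-1.08) and *macroh2a1* (-0.58), and 1 rose, *hist2h3c* (3.35). The falls numbered 7 without replicate 3 of DMSO at day 1 1 without replicate 2 of DMSO at day 1, replicate 2 of JQ1 at day 1 or replicate 1 of DMSO at day 3, and 2 without replicate 2 or 3 of JQ1 at day 3.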

How the data were processed

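The 12 libraries were strand-specific and paired-end, 3 for each of the 4 groups in the labels. STAR 2.5.2a was used by the authors for alignment to GRCz11, with only uniquely placed reads kept, and featureCounts for counting per gene, so genes with near-identical copies are counted low. The deposited table holds raw counts without normalization for 25607 zebrafish genes, 2 transgenes, 92 ERCC sequences and 42 receptor constructs, the last with no counts. The authors also deposited DESeq2 1.12.4 tables for single days, with mean counts, log2 fold changes, test scores and p-values. These were not used. A member of the BET list is not reported here.

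Genes were filtered with filterByExpr by group, scaled with TMM factors and tested with the quasi-likelihood test of edgeR 4.0.16 (R 4.3.3) in a model of day and treatment. P-values were adjusted by Benjamini-Hochberg over all 18116 genes tested, with a threshold of 0.05. Standard errors come from the F statistic, and folds at each day from a fit with 1 mean per group. CPM of single genes are TMM-normalized; sums over lists and transgene levels are not. In data simulated on 17463 of the genes, 100 were changed 2-fold and 100 were changed 4-fold. The changed genes were drawn only from genes above the median level of the rises, so changes in low-level genes were not covered. The fit recovered 15% of the 2-fold and 71% of the 4-fold changes and called 3 unchanged genes. With so few changed genes the adjustment is stricter than in the real data, so these shares do not give the power of the real fit. Single values were compared by exact permutation within days. Alternatives were ERCC scaling, DESeq2 1.42.0, limma 3.58.1 voom with quality weights, no filter, no day term, the mean of both days' effects, single days, a replicate block and leaving out libraries; leaving out 2 libraries at once was chosen after the data were seen. P-values measure the spread between these libraries.

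Symbols came from a names table, in part human-style, and from a gene table of the study: 23612 of 25607 identifiers had one, and genes that shared a symbol are given by identifier where needed. The identifiers of *hexim1* (listed as *HEXIM2*), *mycb*, *myca*, *h2afx* and *sla2* were set by hand. Genes named were *hexim1*, the 10 shortlisted genes, the 12 largest rises and falls at 10 CPM or more and the 6 with the smallest p at 50 CPM or more, each without overlap within days, and up to 4 genes with the smallest p per list. Other genes were named after their values were seen. The comparison and gene lists were chosen with earlier results of these data known.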

Additional observations from a re-analysis of the deposited data

Results flagged for a closer look

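Among the spike-in ratio, the 2 transgenes, *hexim1*, the shortlisted genes and the genes named by size or smallest p, each over the 6 libraries of a treatment, 14 of 100 groups of values held a library far from the others. Each of the 14 was the highest of its group. The cutoff assumes independent, normally spread values, and many of these genes vary together, so the count cannot be set against chance. In germ-cell genes, replicate 2 of JQ1 at day 3 stood far above the other JQ1 libraries, with 85.6 CPM for *piwil2*, 111 CPM for *tdrd9*, 99.8 CPM for *tdrd1*, 274 CPM for *ddx4*, 78.1 CPM for *rnf17* and 32.9 CPM for *tdrd5*; it was also the highest JQ1 library for *rmi1*, with 5.14 CPM. Among the DMSO libraries, replicate 3 of day 3 stood apart in *rnf17* (2.33 CPM), *moto* (1.64 CPM), *tdrd6* (4.92 CPM) and *ddx19a* (2.46 CPM), and in *ncaldb* (688 CPM). Replicate 2 of DMSO at day 1 stood apart in *ndufa4b* (63.7 CPM) and replicate 2 of DMSO at day 3 in *igf2bp1* (760 CPM).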

How the results depend on the processing

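ERCC scaling and single days changed the counts most. The genes called higher and lower were 1286 and 6882 with ERCC size factors, 1702 and 7780 with DESeq2 and ERCC size factors, 7 and 0 in day 1 libraries alone (1950 and 1586 at an unadjusted p under 0.05), and 2491 and 1613 in day 3 libraries alone. All other alternatives stayed within 1.5 times of the main counts. *hexim1* kept its direction in each alternative but did not pass with ERCC size factors (0.69), with DESeq2 and ERCC size factors (0.67) or at day 1 alone (1.84). The spike-in difference was -1.60 at day 1 alone and -0.66 at day 3 alone, where no p can go below 0.1. Leaving out 1 library at a time gave 2876 to 5078 genes higher and 2286 to 3716 lower, 1.37 to 1.61 for *hexim1*, and -1.36 to -0.97 for the spike-in difference. Without replicate 3 of DMSO at day 1, the highest of these, 3509 of 5078 rises and 2904 of 3716 falls were shared with the main fit. Same-numbered libraries of a day correlated from -0.262 to 0.134 in their deviations. These values show no pairing of the samples by number but cannot exclude one. With a replicate block, 3023 genes were higher and 2348 lower, *hexim1* was 1.55 and the spike-in difference -1.13.

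Of 179 other named genes, 160 were called in the main fit. Of these 160, 4 to 14 lost their call in each fit without 1 library, 41 with ERCC size factors, 34 at day 3 alone and 152 at day 1 alone. The sign changed with ERCC size factors for ENSDARG00000035771 (-0.17) and *trim25* (-0.39), with DESeq2 and ERCC size factors for ENSDARG00000035771 (-0.19), ENSDARG00000054271 (-0.0030) and *trim25* (-0.43), with limma voom for *hemgn* (0.0098), leaving out 1 library for *hemgn* (-0.57 to 0.055, positive only without replicate 3 of DMSO at day 1), at day 1 alone for *sec22ba* (0.17), *midn* (0.013), *sla2* (0.063) and *cd79a* (0.25), and at day 3 alone for *buc* (0.39). The cause was not tested. With 6 libraries per treatment and this spread, a gene that was not called may still have changed.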

Other observations

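Grouping genes by the letters of their symbols, chosen after the values were seen and given without a test, showed further groups among 118 families with 15 or more tested genes. Nuclear pore genes (*nup*) were lower in 15 of 21, with a median log2 fold change of -0.89, genes that modify transfer RNA (*trmt*) in 11 of 17 (-0.96), peroxisome biogenesis genes (*pex*) in 9 of 16 (-0.74), Integrator subunits (*ints*) in 9 of 16 with 1 higher (-0.55), and Mediator subunits (*med*) in 13 of 30 (-0.63). Rises were called in 15 of 20 calcium channel genes (*cacna*, median 2.85), 11 of 17 inward-rectifier potassium channel genes (*kcnj*, 2.46), 13 of 26 semaphorins (*sema*, 2.38), 11 of 19 *sox* genes (2.01) and 11 of 20 regulators of G-protein signaling (*rgs*, 2.19). Families with more rises than falls numbered 65 and those with more falls than rises 47. Over all genes tested 20.4% rose and 16.2% fell. By level, 35.0% of genes under 1 CPM and 30.8% at 1 to 10 CPM rose. Falls were called in 26.9% at 10 to 100 CPM and 24.1% over 100 CPM. The families were not compared with genes of the same level.

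The immunoproteasome gene *psmb8* had the lowest log2 fold change of the genes in the lists, -9.90 (adjusted p = 0.00908), and was singled out after its values were seen. Its counts were 688 in replicate 2 of DMSO at day 1 and 1072 in replicate 3 of DMSO at day 3, 10, 3, 0 and 0 in the other DMSO libraries, and 0 or 1 in the JQ1 libraries. The call thus rested on 2 libraries, and the treatments overlapped.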
